A study of Homo sapiens with 4 samples.

Results

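The genes described here are the MAF transcription factors and genes tied to MAF in myeloma: MAF, MAFA, MAFF, MAFG, MAFK, WWOX, ITGB7 and CCR1. They are 8 of the 62069 genes counted, and all 8 had enough reads to be tested. They were chosen by name, as the entries of the deposited gene table with these symbols, and were joined through their gene identifiers to the count file of each library. The cells were KMS11, a human multiple myeloma cell line in which a t(4;14) translocation drives the histone methyltransferase NSD2. The 4 libraries were bulk RNA-seq of total RNA: 2 were from cells labelled control, given a control shRNA, and 2 from cells labelled NSD2 knockdown, given an shRNA against NSD2. In all 4, cells of the same line were infected with lentivirus with 10 µg/mL polybrene and collected at 96 h, after 72 h in fresh growth medium. Nothing in the labels says that libraries 1 and 2 of a group were grown or infected separately. The p-values below therefore reflect the spread between these 4 samples alone, and that spread may be technical. The line is 1 cell line, and the libraries are numbered 1 and 2 within each group.

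MAF proteins are basic leucine zipper transcription factors that bind DNA as pairs. The large factors, among them MAF and MAFA, carry an activation domain, whereas the small factors MAFF, MAFG and MAFK lack one and pair with CNC and BACH proteins such as NRF2 (gene NFE2L2) and BACH1 on antioxidant response elements. In myeloma a t(14;16) translocation places MAF near the immunoglobulin heavy chain enhancer, with breakpoints that commonly fall inside the neighbouring gene WWOX, and KMS11 has been described as carrying this translocation beside t(4;14). CCND2, ITGB7 and CCR1 are genes commonly named as targets of MAF in myeloma cells: ITGB7 encodes the integrin beta 7 subunit, which supports adhesion to bone marrow stroma, and CCR1 encodes a chemokine receptor.

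The 250 bases before the annotated start of MAF and of 2 genes commonly named as its targets are shown, from RefSeq on the GRCh38.p14 build, 5′ to 3′ along the gene. Capitals mark matches to the motifs searched.
MAF, chr16:79600738-79600987, minus strand: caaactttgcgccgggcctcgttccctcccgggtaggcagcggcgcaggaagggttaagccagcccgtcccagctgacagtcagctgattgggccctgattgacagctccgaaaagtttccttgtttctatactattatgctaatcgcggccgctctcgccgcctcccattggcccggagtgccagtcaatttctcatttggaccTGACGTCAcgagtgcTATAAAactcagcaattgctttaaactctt
ITGB7, chr12:53207252-53207501, minus strand: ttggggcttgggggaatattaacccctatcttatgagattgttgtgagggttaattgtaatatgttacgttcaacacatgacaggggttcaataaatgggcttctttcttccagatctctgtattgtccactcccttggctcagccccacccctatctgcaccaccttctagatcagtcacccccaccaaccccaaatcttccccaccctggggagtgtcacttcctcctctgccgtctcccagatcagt
CCR1, chr3:46208314-46208563, minus strand: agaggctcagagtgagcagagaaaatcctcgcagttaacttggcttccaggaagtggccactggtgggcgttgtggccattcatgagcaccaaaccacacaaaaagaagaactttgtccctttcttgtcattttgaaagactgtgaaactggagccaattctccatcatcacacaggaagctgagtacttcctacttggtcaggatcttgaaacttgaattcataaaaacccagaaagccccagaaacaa
RefSeq starts were matched for 6 of the 8 genes, at 7 starts, and none for MAFA and MAFK. The motifs were searched on both strands. They were the MAF recognition core TGCTGAC, present in 3.43% of 35116 promoter windows of this length, the antioxidant core TGACNNNGC (10.9%), the AP-1 site TGACTCA (4.2%), the cyclic AMP response element TGACGTCA (1.65%) and the TATA box TATAAA (10.7%). No listed motif overlaps another in the MAF window. That window held TGACGTCA from 45 to 38 bases before the start and TATAAA from 30 to 25 bases before it. None of the 5 motifs was found in the ITGB7 or CCR1 window, nor in that of MAFG. MAFF held TGACGTCA and 1 match to TGACNNNGC at 1 of its 2 starts, and WWOX held 1 match to TGACNNNGC. The MAF recognition core itself occurred in 0 of the 7 windows. These matches describe letters in short windows and were not tested for binding.

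Library totals ran from 46728940 to 55059566 fragments assigned to genes, and 17172 genes were tested for knockdown against control with edgeR's quasi-likelihood test and Benjamini-Hochberg adjustment over all of them. At an adjusted p under 0.05, 299 genes were higher and 719 lower, so 29.4% of the calls were higher; with smooth terms for GC content and length this share was 51.0%. Levels are given as CPM, fragments of a gene per 1000000 fragments of the library. NSD2 itself was 1121 and 1471 CPM in the control libraries and 919 and 1156 CPM in those labelled NSD2 knockdown, which overlap; its log2 fold change was -0.32 (SE 0.15, adjusted p = 0.244). NSD2 passed the test in 4 of 13 alternative settings: with no filter on low counts (adjusted p = 0.0173), with the library number as a block (0.0197), without control 1 (0.0196) and without knockdown-labelled 2 (0.0268). It was at -0.50 in each of the last pair, while leaving out single libraries moved it over a range of -0.50 to -0.12. With the GC content and length terms it was at -0.00899. NSD2 was higher in library 2 than in library 1 by 0.39 in control and 0.33 in the knockdown-labelled group on the log2 scale. These gaps are larger than its fitted difference. The second group is therefore called by its label throughout. Summed plasma cell markers were at 3382 to 3558 CPM in control and 3200 to 3583 CPM in the knockdown-labelled libraries, but single markers went both ways. XBP1, IRF4 and SDC1 were named after their values were seen. The groups of each did not overlap, which also held for 53.2% of all tested genes. None of them passed the test, whereas SLAMF7 and CD38, given further below, passed and both fell. Mean levels went from 960 to 1144 CPM for XBP1 (adjusted p = 0.209) and from 648 to 497 CPM for IRF4 (adjusted p = 0.0810). SDC1 went from 643 to 672 CPM (adjusted p = 0.735). The plasma cell marker CD38 was low at 1.54, 0.700, 0.290 and 0.0369 CPM. Myeloid markers, of interest because monocytes express CCR1, summed to at most 0.295 CPM in any library, and of the T cell markers CD3D was at 0 in all 4 while CD3E, named after its values were seen, was at 4.33 and 3.65 CPM in control and 2.61 and 2.56 CPM in the knockdown-labelled libraries.

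Of the 8 genes, 1 fell and none rose. The gene that fell was ITGB7. Across all tested genes 5.93% were called in either direction, 1.74% higher and 4.19% lower. The counts of calls in the gene lists below stand beside these same shares. Those lists are short and were not tested as sets, and ITGB7 and CDH1 are each counted in more than 1 list. The groups did not overlap in CPM for 4 of the 8, with 2 higher (MAF and MAFG) and 2 lower (ITGB7 and WWOX); over all tested genes the groups did not overlap for 53.2%, 27% higher and 26.2% lower, so the share among these genes is near the background, and 1 call in 8 genes is too few to set against 5.93%. The median log2 fold change was 0.00 over the 8 genes, against -0.00 over all genes tested.

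**Figure D1:**
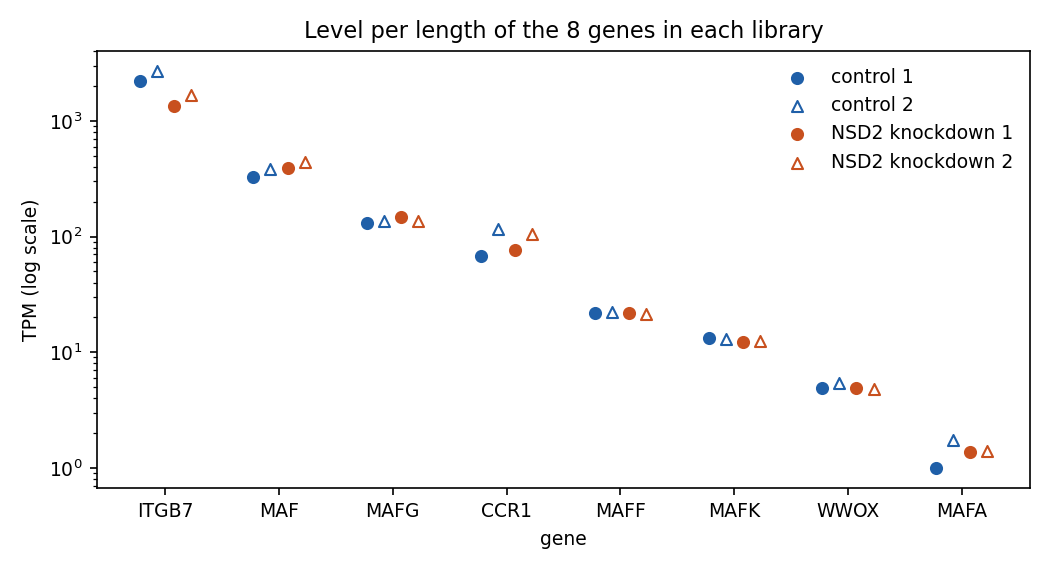
Levels of the 8 genes as TPM (scaled by exonic length to 1000000 per library, log axis) in the 2 control libraries (blue) and the 2 libraries labelled NSD2 knockdown (orange), with circles for libraries numbered 1 and triangles for libraries numbered 2. ITGB7 is highest and MAFA lowest in every library, and for ITGB7 both orange points lie below both blue points.

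Compared per transcript length, as TPM (scaled by exonic length to 1000000 per library), the genes kept 1 order in all 4 libraries: ITGB7, MAF, MAFG, CCR1, MAFF, MAFK, WWOX and MAFA. No pair of neighbours in this order overlapped over the 4 libraries, and the closest pair was MAFG over CCR1, at a ratio of mean control TPM of 1.44. ITGB7 had a mean control level of 2463 ± 370 TPM (SD, n = 2), which ranked 28 among 16378 protein-coding genes with any fragment. MAF followed at 356 ± 42.3 TPM, rank 288, 6.91 times below ITGB7. MAFG (134 ± 2.84 TPM) and CCR1 (92.5 ± 34.5 TPM) ranked 1000 and 1576. MAFF (22.0 TPM) and MAFK (13.1 TPM) lay in the middle of the ranking, at places 5604 and 7201. WWOX, at 5.15 ± 0.32 TPM, was at place 9312, and MAFA, at 1.37 ± 0.52 TPM, at place 11053. The plot of levels per length shows this order, with the 2 control values of CCR1 well apart for its level.

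MAF (ENSG00000178573) lies on the minus strand of GRCh37 chromosome 16, at 79619740 to 79634611. Its level was 741 CPM in control 1 and 842 CPM in control 2, and 874 and 1023 CPM in knockdown-labelled libraries 1 and 2. Both knockdown-labelled libraries stood above both control libraries, though control 2 and knockdown-labelled 1 were close. The group means were 791 ± 71.7 and 948 ± 105 CPM (SD, n = 2 each), so the knockdown-labelled mean was 19.9% above the control mean. On the log2 scale the fitted difference was 0.26 (SE 0.115, 95% interval 0.00 to 0.52), which did not pass the test (adjusted p = 0.216). In the authors' deposited table the log2 fold change of MAF was 0.27, with an adjusted p of 1. That table names its contrast M2 vs LUC while its control columns are named shScr, so which control its values refer to is not clear.

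MAFA (ENSG00000182759), the large MAF factor best known from pancreatic beta cells, was barely detected. Its raw counts were 41 and 64 fragments in the control libraries and 53 and 63 in the knockdown-labelled ones. The groups overlapped, and the fitted log2 difference was 0.06 (SE 0.292, adjusted p = 0.928, 95% interval -0.59 to 0.72). Without control 1 it was -0.26, and with GC content and length terms -0.019, so the data give it no direction. NRL, a large MAF factor known from rod photoreceptors and named after its values were seen, was also near 1 CPM, from 1.35 to 1.68 CPM over the 4 libraries.

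Among the small MAF factors none passed the test. MAFG (ENSG00000197063, chromosome 17, 79876146 to 79885590, minus strand) was the most abundant of them, at 223 and 221 CPM in control and 243 and 234 CPM in the knockdown-labelled libraries. Its groups did not overlap in CPM, but in TPM knockdown-labelled 2 (135.1) fell between the control libraries (131.6 and 135.7). The log2 fold change of MAFG was 0.10 (SE 0.0908, 95% interval -0.10 to 0.31, adjusted p = 0.550). MAFG shares 105 exonic bases with SIRT7 and 224 with an antisense gene of at most 113 fragments per library. Since the counting ignored strand and counted no fragment for several genes, fragments there can be lost. The level of MAFG may thus be understated.

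MAFF (ENSG00000185022, chromosome 22, 38597889 to 38612518, plus strand) was at 21.1 and 20.6 CPM in control and 20.5 and 21.2 CPM in the knockdown-labelled libraries. The 4 values lie within 1 CPM of each other and the groups overlap. Its log2 fold change was -0.00 (SE 0.106, adjusted p = 0.990, 95% interval -0.24 to 0.23), and it ranged from -0.03 to 0.02 when single libraries were left out. MAFK (ENSG00000198517, chromosome 7, 1570350 to 1582679, plus strand) was at 19.1 and 18.2 CPM against 17.4 and 18.5 CPM, again overlapping. The log2 fold change of MAFK was -0.05 (SE 0.112, 95% interval -0.30 to 0.20, adjusted p = 0.820). MAFK shares 1559 of its 4458 exonic bases with an unnamed gene listed at 0 fragments in all 4 libraries. Fragments there can be lost to both genes, so the level of MAFK, and with it its place below MAFF, may be understated. The intervals of MAFF and MAFK include differences of 0.23 and 0.20 upwards and 0.24 and 0.30 downwards on the log2 scale.

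**Figure D2:**
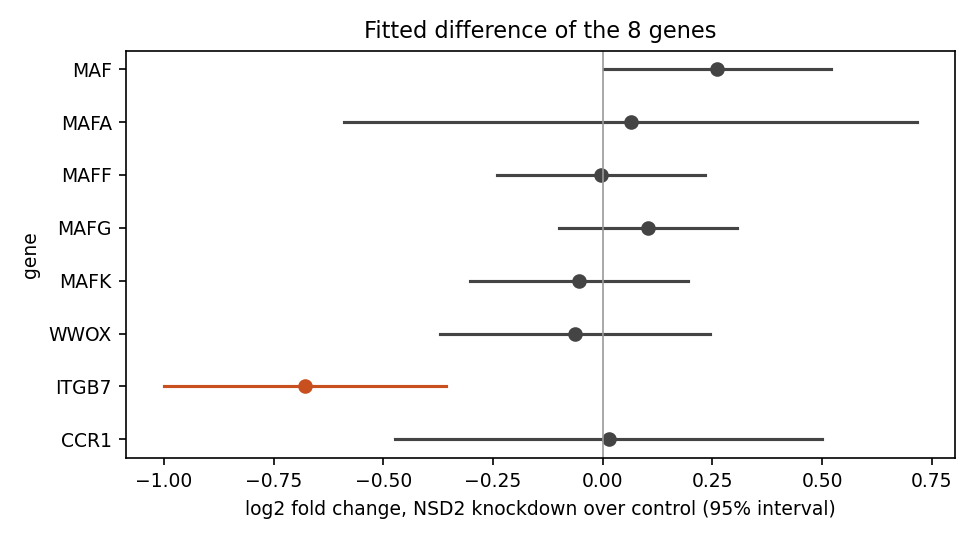
Fitted log2 fold change of the 8 genes, libraries labelled NSD2 knockdown over control, with 95% intervals; orange marks an adjusted p under 0.05. The interval of ITGB7 (-1.0 to -0.36) lies below 0, and MAFA and CCR1 have the widest intervals.

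The CNC and BACH proteins that pair with small MAF factors were next examined as a group, with KEAP1, the adaptor that targets NRF2 for degradation. None of the 6 tested genes of this list of 7 passed the test in either direction, with a median log2 fold change of -0.05, and NFE2, the erythroid member, was at 0 fragments in all 4 libraries. NFE2L1, which encodes NRF1 and is the most abundant per length of the list, was at 839 and 657 CPM in control and 762 and 541 CPM in the knockdown-labelled libraries, with overlap and a log2 fold change of -0.20 (SE 0.166, adjusted p = 0.526). Without knockdown-labelled 1 NFE2L1 passed the test, at -0.46 with an adjusted p of 0.0387, and without knockdown-labelled 2 its value was 0.02. BACH1, a repressor at antioxidant response elements, was named after its values were seen. It was at 52.9 and 56.2 CPM in control against 43.2 and 42.7 CPM, without overlap. Its log2 fold change of -0.34 (SE 0.0923) did not pass (adjusted p = 0.0602), but did in 4 of 13 alternative settings.

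Of 14 antioxidant response element genes tested out of 15 listed, 2 rose and 1 fell, and the median log2 fold change was 0.00. PRDX1, a peroxide-reducing peroxiredoxin, rose from 372 ± 1.66 to 507 ± 19.8 CPM, a log2 fold change of 0.44 (SE 0.0939, adjusted p = 0.0237). HMOX1, the heme-degrading enzyme heme oxygenase 1 and a BACH1 target, rose from 12.6 ± 0.358 to 18.6 ± 3.29 CPM, a log2 fold change of 0.56 (SE 0.141, adjusted p = 0.0470). Both calls were lost without knockdown-labelled 2. The log2 fold change was then 0.40 for PRDX1 (adjusted p = 0.127) and 0.36 for HMOX1 (adjusted p = 0.435). HMOX1 also missed the threshold under upper-quartile scaling (0.0596), a stricter count filter (0.0649) and limma-voom (0.0559). OSGIN1, an oxidative stress induced growth inhibitor, fell from 4.27 and 5.83 CPM in control to 1.65 and 1.57 CPM, a log2 fold change of -1.65 (SE 0.215, adjusted p = 0.00276).

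FOS and JUN proteins can also pair with MAF proteins, and their genes were listed together with ATF3, BATF and BATF3. Among 9 tested of these 10 genes none rose and 2 fell, with a median log2 fold change of -0.21. FOSL2 fell from 4.14 ± 0.507 to 2.17 ± 0.356 CPM, by 0.93 on the log2 scale (SE 0.205, adjusted p = 0.0273). ATF3, a stress-induced factor, fell from 27.2 ± 1.80 to 19.7 ± 0.270 CPM, a log2 fold change of -0.47 (SE 0.107, adjusted p = 0.0337). The call of FOSL2 was lost without knockdown-labelled 2 (-0.78, adjusted p = 0.108). That of ATF3 was lost without control 1 (-0.39, adjusted p = 0.0501), knockdown-labelled 1 (-0.47, adjusted p = 0.0755) or knockdown-labelled 2 (-0.46, adjusted p = 0.134).

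Enzymes known to act on the MAF protein, the kinases GSK3A and GSK3B and the ubiquitin enzymes UBE2O, HERC4, USP5, USP7 and OTUB1, gave no call among 7 tested, with a median log2 fold change of 0.07. USP5, a deubiquitinase and the most abundant of them per length, was at 207 and 204 CPM in control and 218 and 213 CPM in the knockdown-labelled libraries (log2 fold change 0.07, SE 0.0899, adjusted p = 0.705). RNA levels do not measure MAF protein.

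ITGB7 (ENSG00000139626, chromosome 12, 53585102 to 53601091, minus strand) was the gene that fell. It was at 3217 CPM in control 1 and 3826 CPM in control 2, and at 1909 and 2492 CPM in knockdown-labelled libraries 1 and 2. Both knockdown-labelled libraries lay below both control libraries, and in each group library 2 stood above library 1. The mean went from 3521 ± 430 to 2200 ± 412 CPM (SD, n = 2 each), which is 1.60-fold lower. The fitted difference was -0.68 on the log2 scale (SE 0.144, 95% interval -1.0 to -0.36; adjusted p = 0.0238). Leaving out single libraries moved it between -0.89 and -0.49, with the call kept each time. In these bulk samples, fewer cells with ITGB7 RNA and less of it per cell cannot be told apart. The authors' deposited table gives ITGB7 a log2 fold change of -0.65 (SE 0.213) with a p of 0.00216 and an adjusted p of 0.0893, above 0.05. No annotated gene overlaps ITGB7, MAF or MAFA.

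The integrin alpha subunits that pair with beta 7 are ITGA4 and ITGAE, and the list examined with them held the ligands CDH1, VCAM1, MADCAM1 and FN1 and the other alpha 4 partner ITGB1. Of 7 tested genes of these 8, none rose and 2 fell, ITGB7 and CDH1, and the median log2 fold change was -0.26. CDH1, which encodes E-cadherin and is a ligand of the alpha E beta 7 integrin, fell from 3.13 and 4.03 CPM to 1.51 and 1.93 CPM, a log2 fold change of -1.05 (SE 0.225, adjusted p = 0.0248). The remaining genes of this list named here were chosen after their values were seen. ITGA4, which forms alpha 4 beta 7, was at 91.4 and 95.7 CPM in control and 95.9 and 90.8 CPM in the knockdown-labelled libraries, an overlap with a log2 fold change of -0.00 (SE 0.0916, adjusted p = 0.992) that was 0.13 with GC content and length terms. ITGAE was at 16.9 and 16.2 CPM against 21.9 and 21.2 CPM, without overlap. Its log2 fold change of 0.38 (SE 0.109) did not pass (adjusted p = 0.0767). It passed in 3 of 13 alternative settings, among them the GC content and length terms (0.0249). FN1, fibronectin, was at 280 and 532 CPM against 181 and 318 CPM, overlapping. Its log2 fold change of -0.70 (SE 0.293) did not pass (adjusted p = 0.197), but did in 5 of 13 alternative settings. Leaving out single libraries moved it between -1.17 and -0.17. For FN1, library 2 exceeded library 1 by 0.93 in control and 0.81 in the knockdown-labelled group on the log2 scale. Both gaps are larger than the fitted difference. ITGB1 was at 122 and 125 CPM against 102 and 105 CPM (log2 fold change -0.26, adjusted p = 0.126) and passed in 2 of 13 alternative settings.

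Epithelial markers, which include CDH1, were examined as well. Over all tested genes 4.19% fell. Of the 5 markers listed, 3 were tested and 3 fell: EPCAM by 0.78, KRT18 by 1.57 and CDH1 by 1.05 on the log2 scale. Their summed level was 53.9 to 66.3 CPM in control and 32.9 to 34.4 CPM in the knockdown-labelled libraries, whereas KRT19 was at or near 0. T and NK cell markers summed to 6.15 to 6.39 CPM in control and 2.96 to 3.10 CPM in the knockdown-labelled libraries. This sum was nearly all CD3E and NCAM1, with CD3D and KLRD1 at 0, and whether such cells were present was not tested. NCAM1 fell by 2.64 on the log2 scale (adjusted p = 0.000978). CD3E, at -0.63, did not pass (adjusted p = 0.0838), but did in 4 of 13 alternative settings. Of 8 plasma cell markers 2 fell: SLAMF7, a surface receptor of plasma cells, by 1.09 on the log2 scale (SE 0.114, adjusted p = 0.000952), and CD38 by 2.82 (SE 0.625, adjusted p = 0.0284). Leaving out single libraries moved the log2 fold change of CD38 between -4.84 (without knockdown-labelled 1) and -1.96 (without knockdown-labelled 2). Of the B cell markers, summed at 35.2 to 42.8 CPM and nearly all CR2, and the stromal markers, at 1.12 to 1.78 CPM, none passed. The part of any of these in the ITGB7 difference was not tested.

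CCR1 (ENSG00000163823, chromosome 3, 46243200 to 46249887, minus strand) was at 60.5 CPM in control 1 and 99.7 CPM in control 2, and at 66.8 and 94.8 CPM in the knockdown-labelled libraries. The groups overlapped completely: both knockdown-labelled values fell between the control values. The fitted log2 difference of CCR1 was 0.01 (SE 0.218, adjusted p = 0.982, 95% interval -0.47 to 0.50). Library 2 exceeded library 1 by 1.65-fold in control and 1.42-fold in the knockdown-labelled group, a wider gap between libraries of a group than in 93.2% and 88.1% of tested genes. With single libraries left out the value of CCR1 ran from -0.30 (without control 1) and -0.27 (without knockdown-labelled 2) up to 0.41, so the data give it no direction. CCR1 lies within the span of CCR3, on the other strand, and shares no exonic base with it. A difference of the size fitted for ITGB7 lies below the 95% interval of CCR1; the difference between the 2 genes was not tested.

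Other chemokine receptors were mostly at low levels. Of 16 examined 7 were tested, CCR1 among them, and none rose and 1 fell, with a median log2 fold change of -0.04. CXCR3, a receptor for interferon-induced chemokines, fell from 1.48 and 2.5 CPM to 0.724 and 0.792 CPM (log2 fold change -1.39, SE 0.30, adjusted p = 0.0258), a call lost without control 2 (-0.97, adjusted p = 0.0784). CCR3, a receptor known from eosinophils and named after its values were seen, was at 4.57 and 8.08 CPM in control and 2.21 and 3.61 CPM in the knockdown-labelled libraries, without overlap. Its log2 fold change of -1.11 (SE 0.295) did not pass (adjusted p = 0.0589), but did in 7 of 13 alternative settings. Leaving out single libraries moved it between -1.52 and -0.65. For CCR3, library 2 exceeded library 1 by 1.77-fold in control and 1.63-fold in the knockdown-labelled group. Of 7 CCR1 ligands listed, only CCL7 was matched by its symbol, with at most 0.0848 CPM in any library and no test.

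The wider list of genes reported for MAF-driven myeloma held 10 genes, of which 9 were tested (all but SPP1, osteopontin). None rose and 2 fell, with a median log2 fold change of -0.15. The gene that fell beside ITGB7 was NTRK2, a neurotrophin receptor tyrosine kinase, from 3.07 and 3.14 CPM in control to 0.869 and 0.590 CPM in the knockdown-labelled libraries. The groups were far apart against the spread within each, and the log2 fold change was -2.09 (SE 0.247, adjusted p = 0.00182). The list members that did not pass were named after their values were seen. NUAK1, a kinase of the AMPK family, stood on the other side: 19.4 and 27.0 CPM in control and 32.6 and 37.2 CPM in the knockdown-labelled libraries, without overlap, with a log2 fold change of 0.59 (SE 0.151) and an adjusted p of 0.0520. NUAK1 passed under 8 of 13 alternative settings, among them DESeq2 (0.0104), limma-voom (0.0474), and the fits without control 2 (0.000117) or knockdown-labelled 1 (0.00098).

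CCND2, which encodes the cell cycle regulator cyclin D2, was at 779 and 889 CPM in control and 655 and 848 CPM in the knockdown-labelled libraries, with overlap (log2 fold change -0.15, SE 0.133, adjusted p = 0.550); without knockdown-labelled 1 its value was 0.03. DEPTOR, an inhibitor of mTOR kinase, was at 216 and 280 CPM against 181 and 245 CPM (log2 fold change -0.22, adjusted p = 0.453). DEPTOR passed the test in 2 of 13 alternative settings. The endotoxin receptor TLR4, whose log2 fold change over all libraries was -0.29 (adjusted p = 0.356), passed in 1. RND3, a small GTPase, was at 16.4 and 33.1 CPM against 23.0 and 43.8 CPM, overlapping (log2 fold change 0.44, SE 0.323, adjusted p = 0.471). It passed in 5 of 13 alternative settings. Its value was 1.02 without control 2, 0.83 without knockdown-labelled 1 and -0.11 without knockdown-labelled 2. CX3CR1, the fractalkine receptor, was at 1.15 and 2.69 CPM against 1.2 and 2.71 CPM (log2 fold change 0.04, SE 0.427, adjusted p = 0.970).

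**Figure D3:**
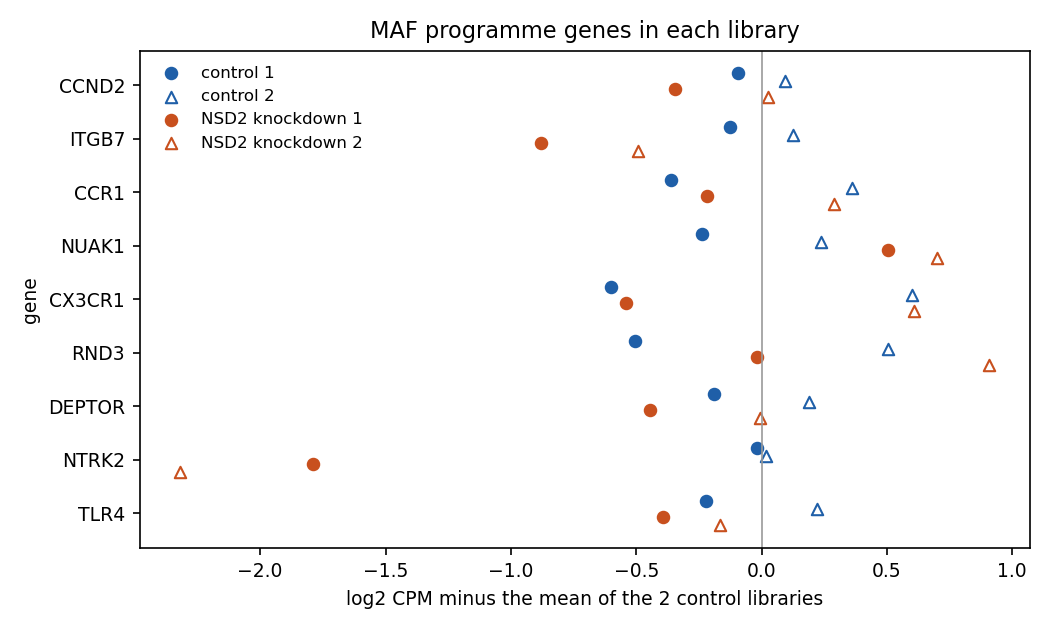
Log2 CPM of the 9 tested MAF programme genes in each library, minus the mean of the 2 control libraries, with circles for libraries numbered 1 and triangles for libraries numbered 2. ITGB7 and NTRK2 lie left of both control points in both libraries labelled NSD2 knockdown (orange) and NUAK1 lies right of them, whereas CX3CR1, RND3 and CCR1 separate mainly by library number.

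Within groups, 8 of these 9 genes were higher in library 2 than in library 1 in both groups, NTRK2 being the exception, and so were 29.7% of all tested genes. The gap was widest for CX3CR1, at 1.23 on the log2 scale in control and 1.17 in the knockdown-labelled group, followed by RND3 at 1.01 and 0.93. In both groups this gap between libraries exceeded the fitted difference between the groups for CX3CR1, RND3, CCR1, CCND2 and DEPTOR. MAF itself was also higher in library 2, by 0.18 and 0.23. The labels do not say what the library numbers stand for.

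WWOX (ENSG00000186153, chromosome 16, 78133310 to 79246564, plus strand) encodes a WW-domain oxidoreductase and spans a common fragile site. It was at 7.81 and 8.21 CPM in control and 7.61 and 7.72 CPM in the knockdown-labelled libraries. The knockdown-labelled values lay just below the control values, with no overlap, but the gap between the nearest libraries was smaller than the spread within the control group. Its log2 fold change was -0.06 (SE 0.138, adjusted p = 0.831, 95% interval -0.37 to 0.24), and 0.02 with GC content and length terms. These are counts over all exons, so they do not tell transcripts of an intact allele from those of a broken one. The 11 genes within the WWOX span had at most 4 fragments in any library and share no exonic base with it.

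Among 8 tested genes of 10 whose proteins are known to bind WWOX, none rose and 1 fell, with a median log2 fold change of -0.15. RUNX2, the transcription factor that directs bone formation, fell from 33.0 and 39.0 CPM to 21.3 and 23.9 CPM, a log2 fold change of -0.67 (SE 0.118, adjusted p = 0.0111) that was called under all 13 alternative settings.

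The genes around MAF and WWOX were taken from 2 Mb before WWOX to 2 Mb after MAF, GRCh37 chromosome 16 from 76133310 to 81634611. Besides MAF and WWOX this window held 82 genes, of which 22 were tested, 12 of them protein-coding. None rose and 1 fell, and the median log2 fold change was -0.02. The gene that fell was LINC01229, a long intergenic non-coding RNA gene at 79710005 to 79841819, whose start lies 75.4 kb from that of MAF. It had 98 and 77 fragments in the control libraries and 27 and 46 in the knockdown-labelled ones, with no overlap. Its log2 fold change was -1.33 (SE 0.276, adjusted p = 0.0221), and the call was lost without knockdown-labelled 1 (-1.07, adjusted p = 0.0504).

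MAFTRR, a non-coding RNA gene known as a regulator of MAF in T cells and named after its values were seen, starts 170 kb from MAF on the other strand of the same interval as LINC01229. It had 14 and 12 fragments against 6 and 7, a log2 fold change of -1.06 (SE 0.454, adjusted p = 0.208). MAFTRR and LINC01229 share 57 exonic bases. Because counting ignored strand and counted no fragment for several genes, fragments in that stretch can be lost to both. While these 2 genes were lower in both knockdown-labelled libraries, MAF was higher in both, and of these 3 only LINC01229 passed the test. The most abundant other tested gene of the window reached a mean control level of 62.2 TPM, against 356 TPM for MAF.

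**Figure D4:**
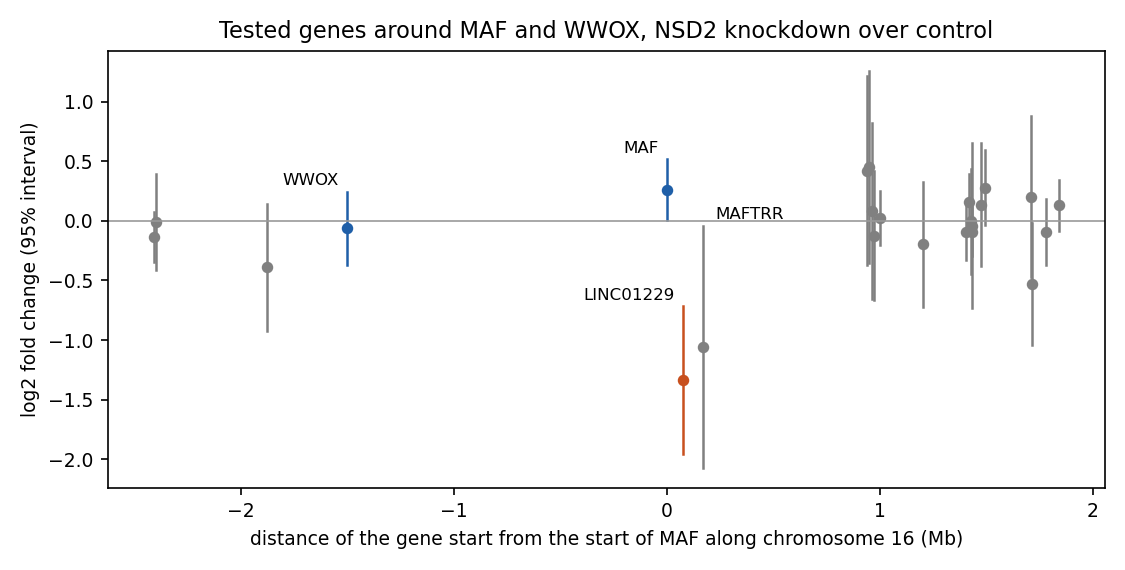
Log2 fold change with 95% interval of the tested genes around MAF and WWOX, libraries labelled NSD2 knockdown over control, by distance of the gene start from the MAF start in Mb; blue marks MAF and WWOX and orange an adjusted p under 0.05. LINC01229, just beside MAF, is at -1.33, and MAF and WWOX are at 0.26 and -0.06.

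The genes with the most similar pattern were taken as those with the smallest Euclidean distance of centred log2 CPM over the 4 libraries, among 9910 protein-coding genes with a mean of at least 5 CPM; with 4 libraries this is a description only. For MAF they were SQLE (distance 0.0247), NOL11 (0.0253) and PYGL (0.0257). For ITGB7 they were TBC1D9 (0.0461), STAT6 (0.0698) and OGDHL (0.0849). The log2 fold changes of these genes were -0.66, -0.64 and -0.70. Their selection by likeness to ITGB7 over the same libraries sets these values near that of ITGB7. For CCR1 they were CDKL2, COL24A1 and PDK1, at distances of 0.0833 to 0.110. Rank by rank these were the widest of the 7 genes compared in this way, though OGDHL lay farther from ITGB7 than CDKL2 from CCR1. WWOX was nearest to ADPGK, USP7 and GOSR1, MAFF to FAM193B, PPP1CC and C1orf109, MAFG to TRMT10B, ZNF638 and YTHDF1, and MAFK to RNF13, ELAVL2 and CDC7.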

How the data were processed

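The authors sequenced RNA from 4 KMS11 libraries and deposited 1 table of raw counts (fragments per gene) for each, made against GRCh37 (hg19). Trim Galore 0.3.7, STAR 2.5.3, Picard, featureCounts (Subread 1.4.6) and DESeq2 are named per the submitters' processing notes. Per the file headers, counting took whole fragments and ignored strand, on alignments marked as free of duplicates and with no option to count a fragment for several genes, so overlapping genes lose shared fragments and highly expressed genes can lose reads as duplicates. A further table of the whole series, deposited by the authors, gives base means (a signal of normalised counts), log2 fold changes with standard errors, p-values and adjusted p-values, symbols and exonic lengths. Its base means of ITGB7, CCR1 and WWOX lie above all 4 counts and those of the 5 MAF genes below all 4, so it does not hold plain means of these libraries; which libraries entered it is not given in the sources used here. Its 4 count columns were not used. Each count file held 1 blank line, which was left out.

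Counts were scaled by the trimmed mean of M values and tested with edgeR 4.0.16 (R 4.3.3; glmQLFit and glmQLFTest) on group alone, with 2 residual degrees of freedom, after filterByExpr, and p-values were adjusted by Benjamini-Hochberg over 17172 genes at 0.05. CPM used the scaled library totals and TPM the deposited exonic lengths. The biological coefficient of variation was 9.81%. Each group has 2 libraries, numbered alike. Alternatives were other scalings and filters, DESeq2 1.42.0, limma-voom (limma 3.58.1), the library number as a block, smooth terms for GC content (known for 96.3% of tested genes, from GENCODE 29) and length, and each library left out.

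The genes and the 17 lists (11 of pathways, 6 of cell markers) were chosen with earlier results of these data known, and 2 genes of the lists are not reported here. Named are the 8 genes, from each list up to 3 genes past the threshold in each direction by smallest adjusted p, or else its most abundant gene per length, the neighbours past the threshold, and the 3 nearest patterns; further genes are marked in the text as named after their values were seen. With 2 libraries a group, precision is set by the spread between libraries more than by depth, except for genes with low counts.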

Additional observations from a re-analysis of the deposited data

How the results depend on the processing

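Over 13 alternative settings ITGB7 was called lower in 13, with adjusted p from 3.21e-11 to 0.0359. MAF passed in 1, as did MAFG, and MAFA, MAFF, MAFK, WWOX and CCR1 in 0. The library numbers are not stated to pair libraries, and deviations of same-numbered libraries correlated at 0.236. With the replicate block, 1327 genes were higher and 1992 lower in all (40.0% of calls higher), against 299 and 719 without it; list genes went from 2 to 5 higher and from 8 to 16 lower, and lower neighbours from 1 to 2; MAF had an adjusted p of 0.0512 and CCR1 of 0.833. With the block and GC content and length terms together, 3264 genes were higher and 1919 lower (63.0% higher), 10 list genes were higher and 16 lower, 2 neighbours were higher and 2 lower, and 2 of the 8 genes were higher: MAF (0.39, adjusted p = 0.000285) and MAFG (0.18, adjusted p = 0.0481). With GC content and length terms alone, 649 genes and 4 list genes were higher, and MAF was at 0.39 (adjusted p = 0.0594). With no filter on low counts, 658 genes were higher and 1490 lower, 4 list genes higher and 13 lower, and 2 neighbours lower. With upper-quartile scaling or the stricter filter 1 list gene was higher. Leaving out 1 library at a time gave 173 (without knockdown-labelled 2) to 682 (without control 1) genes higher, 453 without control 2, and 649 to 1342 (without control 1) lower. It gave 0 (without knockdown-labelled 2) to 4 (without control 2 or knockdown-labelled 1) list genes higher, 8 to 14 (without control 1) lower, and 0 (without knockdown-labelled 1) to 3 (without control 1) neighbours lower. The sign turned with GC content and length terms, without and with the block, for MAFA (-0.019 and -0.0087), WWOX (0.0241 and 0.0239) and ITGA4 (0.13 and 0.13). It turned when 1 library was left out for MAFA (-0.26 to 0.47), MAFF (-0.0327 to 0.0232), CCR1 (-0.30 to 0.41), NFE2L1 (-0.46 to 0.0202), COL1A1 (-0.54 to 0.15), CCND2 (-0.36 to 0.0284), RND3 (-0.11 to 1.02), CX3CR1 (-0.68 to 0.77), NFE2L2 (-0.31 to 0.0373) and ITGA4 (-0.0375 to 0.0301). The cause was not tested. These fits leave 1 group with a single library, whose variation is taken from the other group. At MAFA's 41 to 64 fragments, counting error alone limits what could be detected.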
